A study of Mus musculus with 18 samples.

Results

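Bidirectional protein-coding promoters are the short stretches of DNA from which 2 neighbouring protein-coding genes are read in opposite directions. They were taken from the GENCODE vM21 annotation of the mouse genome (mm10, the GRCm38 assembly) as pairs of protein-coding genes on opposite strands, head-to-head, with the minus-strand gene on the left and the gene 5' ends at most 1 kb apart. Each region ran from 1 kb to the left of the minus-strand gene's 5' end to 1 kb to the right of the plus-strand gene's 5' end. This gave 754 regions with 1487 of the 21938 protein-coding genes, 21 of which belonged to 2 or more pairs, and 732 regions remained when overlapping pairs were reduced to 1 per locus. Every other protein-coding gene served as a single promoter, the 5' end with 1 kb on each side, and there were 20451 of these. The single promoters include the genes of 457 head-to-head pairs whose 5' ends overlap by up to 1 kb, which the definition leaves out.

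In a head-to-head pair, a shared nucleosome-depleted stretch recruits RNA polymerase in both directions, and each gene's first transcribed nucleosomes lie on either side of it. Such promoters are usually rich in CpG dinucleotides, lack a TATA box and often serve housekeeping genes of DNA repair, mitochondria and RNA processing. H3K4me3 is deposited around active starts of transcription, mostly on the downstream side, and H3K27ac marks active promoters and enhancers.

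The study mapped both marks by ChIP-seq in bone marrow cells of adult male C57BL6 mice, and the labels name no transgene or treatment. Erythroblasts (ERY) were sorted as Ter119+ and CD44+ cells of low forward scatter, and immature megakaryocytes (iMK) as CD41+ and CD61+ cells without Ter119, Sca1 or cKit, and both sorts removed cells with CD4, CD8, IL7Ra, CD11b, Ly6g or CD45R. Each mark had 2 libraries per cell type, and the authors deposited 1 peak list for each of the 8 libraries. The labels do not say whether the replicates came from separate animals, so p-values can at most reflect the spread between these libraries, which may be technical.

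The lists held 6275 to 13222 H3K4me3 peaks and 21768 to 25750 H3K27ac peaks, and iMK H3K4me3 replicate 2 stood apart, with 33.8 Mb under peaks against 9.02 to 16.0 Mb in the other H3K4me3 lists. For H3K27ac the peaks covered 77.0 and 64.9 Mb in ERY and 42.9 and 53.2 Mb in iMK. The lists carry no read depth. A region without a peak is therefore one that did not pass the authors' threshold, and the mark may still be there. Promoters of the 8 erythroid markers had H3K27ac peaks in both ERY libraries, while only 1 of the 8 megakaryocyte markers (Itgb3) had one in either iMK library, and Itga2b, which encodes the CD41 used in the sort, had none there and one in each ERY library. Of 8 myeloid markers, 5 and 6 had H3K27ac peaks in the 2 iMK libraries and 2 and 6 had H3K4me3 peaks, against 0 in every ERY library. The part of such cells in the differences below was not tested, and the libraries are called "iMK-labelled" for that reason.

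The 5' ends of a pair lay 129.5 bp apart at the median, from 1 to 987 bp, and the middle of the distribution ran from 67 to 240 bp. The kilobase around the midpoint had a median GC content of 60.2%, against 54.2% at single promoters, and a median CpG observed/expected ratio of 0.773 against 0.512. Short motifs were searched for on both strands from 250 bp upstream to 50 bp downstream of each gene's 5' end, so that the windows of closely spaced partners overlap and share matches. The ETS motif CCGGAAG was in 27.3% of the windows of pair genes and in 9.59% of those of single genes (10.8% of all), and the GC box GGGCGG in 68.9% and 41.2% (43.1% of all). The YY1 motif AAGATGGCG was in 5.65% and 1.43% (1.71% of all) and the NRF1 motif GCGCATGCG in 4.77% and 2.32% (2.49% of all). The other direction was found for TATAAA, in 4.10% of pair genes and 13.3% of single genes (12.7% of all), and for the GATA motif AGATAA, in 4.44% and 10.6% (10.2% of all). The CCAAT box differed less, with 44% and 38.7% (39.1% of all), the cyclic AMP response element TGACGTCA was in 4.51% and 2.28% (2.43% of all), and the E-box CACGTG in 11.4% and 7.5% (7.77% of all). The single promoters include 689 with a noncoding gene head-to-head within 1 kb. Among these the GC box was in 67.5%, AGATAA in 4.35% and TATAAA in 5.66%, near the shares of pair genes. The other motifs lay between pair and single genes. ETS was in 20.3%, the CCAAT box in 41.7%, the E-box in 9.72%, TGACGTCA and NRF1 in 3.48% each, and YY1 in 2.03%. These shares describe the annotated starts, and a match is not a bound site.

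The sequences between the 5' ends of 6 pairs are shown as examples of pairs described below. Sept10/Sowahc had both marks only in the iMK-labelled libraries. Hmmr/Nudcd2 had H3K4me3 in every library but H3K27ac only in those labelled iMK. Acyp1/Zc2hc1c and Best1/Rab3il1 had H3K27ac only in ERY. The others are Brca1/Nbr1 and Col4a4/Col4a3, of which the latter had no peak. The sequences are the GRCm38 plus strand, 5' to 3', from the minus-strand gene to the plus-strand gene. Capitals mark matches to the motifs above on either strand.
Sept10/Sowahc, chr10:59221848-59221952: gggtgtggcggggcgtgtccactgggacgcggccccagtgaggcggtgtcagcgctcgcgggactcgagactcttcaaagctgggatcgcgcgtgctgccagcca
Hmmr/Nudcd2, chr11:40733423-40733666: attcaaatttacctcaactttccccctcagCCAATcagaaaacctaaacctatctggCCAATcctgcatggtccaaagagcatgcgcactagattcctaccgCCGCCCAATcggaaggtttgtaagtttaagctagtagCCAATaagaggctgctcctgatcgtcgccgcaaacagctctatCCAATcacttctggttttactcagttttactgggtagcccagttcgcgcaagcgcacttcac
Acyp1/Zc2hc1c, chr12:85288439-85288590: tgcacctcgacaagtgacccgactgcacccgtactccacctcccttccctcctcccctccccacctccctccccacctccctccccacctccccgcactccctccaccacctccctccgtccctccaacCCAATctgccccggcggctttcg
Best1/Rab3il1, chr19:10001634-10001668: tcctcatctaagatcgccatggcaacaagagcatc
Brca1/Nbr1, chr11:101551956-101552148: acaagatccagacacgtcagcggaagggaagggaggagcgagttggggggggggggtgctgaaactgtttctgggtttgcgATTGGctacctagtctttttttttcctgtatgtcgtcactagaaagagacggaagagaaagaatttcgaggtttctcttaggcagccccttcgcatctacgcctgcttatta
Col4a4/Col4a3, chr1:82586850-82586920: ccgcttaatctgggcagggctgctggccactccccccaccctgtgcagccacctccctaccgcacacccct
The stretch between Hmmr and Nudcd2 held 5 CCAAT boxes, 1 of them overlapping a GC box, and 10 CpG dinucleotides in 244 bases. The stretch between Sept10 and Sowahc held 12 CpG dinucleotides in 105 bases and none of the 9 motifs, and that between Col4a4 and Col4a3 had 2 in 71 bases and no match either. Matches between the ends were not counted over all pairs, and their relation to the marks was not tested.

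Most bidirectional promoters carried both marks in both cell types. A region was counted as called in a library where any peak overlapped it by 1 bp or more. H3K27ac peaks lay on 86.6% and 84.4% of the 754 pairs in the ERY libraries and on 89.7% and 90.7% in those labelled iMK. H3K4me3 peaks lay on 85.3% and 72.7% in ERY and on 78.1% and 93.2% in those labelled iMK, the last being the library with the largest H3K4me3 list. Single promoters were called at 23.7% to 46.5% across the 8 libraries.

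The difference between pairs and single promoters was 49.5 ± 2.0 percentage points (mean ± SD of 8 libraries), and pairs were higher in 8 of 8 libraries (46.7 to 52.6 points). An exact sign-flip permutation test over the libraries gave p = 0.0078, two-sided, the smallest that 8 libraries can give. The Benjamini-Hochberg adjusted value over the 4 differences tested in this way was also 0.0078. Values of the same sign in all 8 libraries give this p at any size. The libraries are scored on the same regions and are not independent. A paired region holds 2 annotated starts and is called when either is marked, and its CpG content is higher than that of a single promoter. When single promoters were weighted to the CpG observed/expected bins of the pairs, their shares rose to 43.9% to 74.9%, and the difference was 25.3 ± 3.86 points (18.4 to 29.2, exact sign-flip permutation p = 0.0078). The 689 single promoters with a noncoding gene head-to-head within the same distance, whose median CpG ratio of 0.755 was near that of the pairs, were called at 44.1% to 73.3%. Here too the pairs were higher in 8 of 8 libraries, by 25.2 ± 3.09 points (exact sign-flip permutation p = 0.0078).

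**Figure D1:**
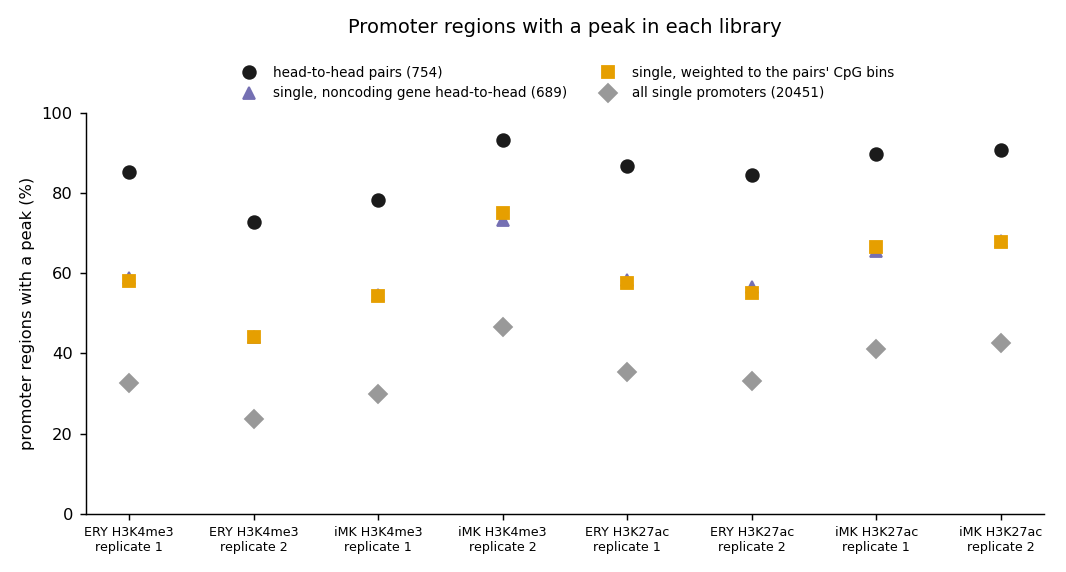
Percent of promoter regions with a peak (vertical axis) in each of the 8 libraries (horizontal axis). Black circles are the 754 pairs, triangles single promoters with a head-to-head noncoding gene, squares single promoters weighted to the CpG bins of the pairs, and diamonds all single promoters. The circles, from 72.7% to 93.2%, are highest in every library.

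The difference was seen at all levels of CpG content. The pairs were cut into 10 bins of CpG observed/expected ratio, with 75 or 76 pairs each, and the shares were averaged over the 4 libraries of a mark. In the highest bin (0.946 to 1.14), 97.0% of the pairs and 77.2% of 878 single promoters had H3K27ac, and 95.4% and 75.1% had H3K4me3. In the second-lowest bin (0.553 to 0.636), the shares were 81.7% and 47.2% for H3K27ac and 70.7% and 40.1% for H3K4me3. The lowest bin (0.10 to 0.553 among the pairs) held 46.7% and 33.9% of pairs with H3K27ac and H3K4me3. Its 10814 single promoters, which reach down to a ratio of 0, had 13.9% and 8.53%, and their CpG content is not well matched to the pairs within this bin.

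**Figure D2:**
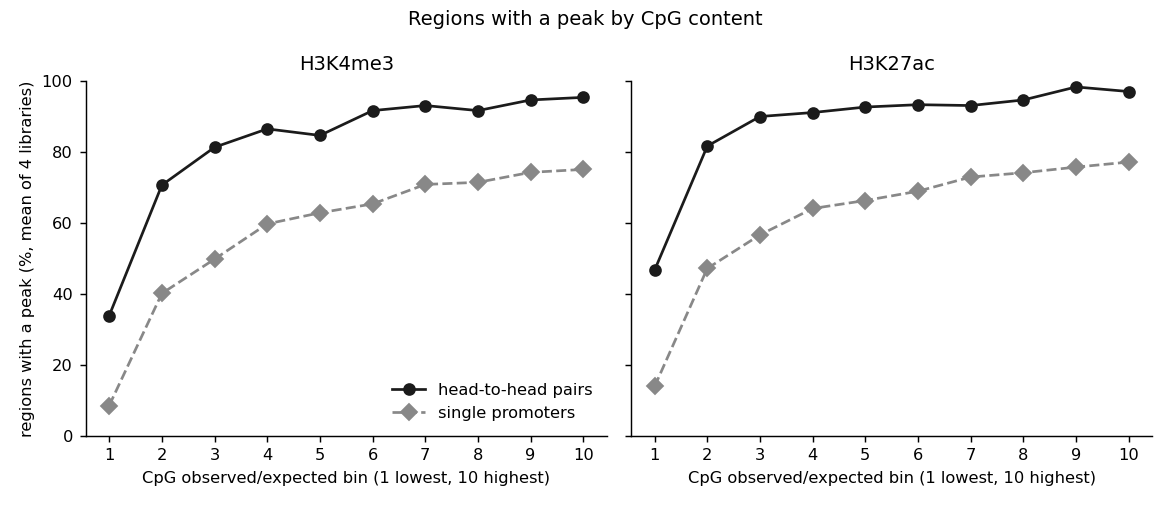
Percent of regions with a peak, averaged over the 4 libraries of each mark (vertical axis), in 10 bins of CpG observed/expected ratio (horizontal axis). Solid lines are pairs and dashed lines single promoters, and the solid line is higher in every bin, for example 97.0% against 77.2% for H3K27ac in bin 10.

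One peak usually covered both starts. Among the pairs called in a library, 1 peak lay over both 5' ends in 87.6% to 95.0% for H3K27ac and in 74.3% to 98.6% for H3K4me3, with the lowest share in ERY H3K4me3 replicate 2, which had the shortest list. Separate peaks over the 2 ends were found in at most 2 pairs per library. The median H3K27ac peak at a pair was 3000 bp wide in both ERY libraries and 2000 and 2200 bp in those labelled iMK. At single promoters it was 2600 bp in both ERY libraries and 1800 and 2000 bp in those labelled iMK. For H3K4me3 the median at a pair was 1600 to 2800 bp. From a gene's 5' end the peak reached 716 to 1326 bp into each gene of a pair (medians by library), whereas at single promoters it reached 940.5 to 1565 bp downstream and 444.5 to 909 bp upstream. Into each gene body, pairs were thus shorter than single promoters in 8 of 8 libraries, with differences of -239.5 to -165.5 bp (mean of -208 ± 27 bp, exact sign-flip permutation p = 0.0078). These lengths move in windows of 200 bp, in which the peaks were called.

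The profile around the starts showed the same arrangement. At the 5' ends themselves, 58.0% to 92.2% of pair genes lay under an H3K4me3 peak and 76.3% to 87.7% under an H3K27ac peak, against 17.8% to 44.7% and 29.0% to 39.6% of single genes. At 1 kb upstream, which in a pair lies inside the partner gene, H3K27ac covered 49.3% to 65.5% of pair genes and 10.5% to 15.5% of single genes. At 1 kb downstream the shares of pair genes were lower, with 36.4% to 58.3% for H3K27ac. For H3K4me3 they were 29.1% to 76.9% upstream and 17.4% to 67.8% downstream. This order follows from the coordinates wherever coverage falls with distance. Both genes of a pair are counted, and 1 kb upstream of a gene lies less than 1 kb inside its partner. At 2 kb downstream the gap between pair and single genes was smaller. In ERY, H3K27ac covered 24.0% and 22.5% of pair genes there, against 14.6% and 12.9% of single genes. In the iMK-labelled libraries pair genes were slightly lower, with 6.76% and 9.42% against 7.49% and 9.53%. The first kilobase of the minus-strand genes was covered by H3K27ac at 71.4% to 75.9% on average by library and that of the plus-strand genes at 70.7% to 75.8%. The median fold enrichment of peaks touching pairs was 9.97 and 11.4 for H3K27ac in the iMK-labelled libraries, 3.75 and 5.13 in ERY, and 3.88 to 5.86 for H3K4me3, and peaks at single promoters had 3.43 to 10.3.

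**Figure D3:**
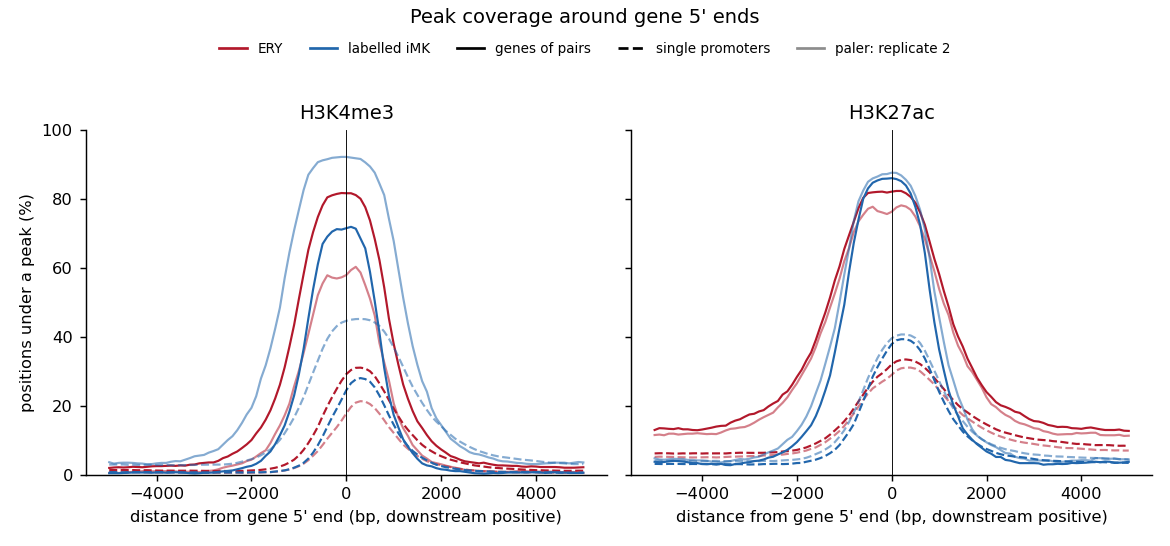
Percent of positions under a peak (vertical axis) by distance from the gene 5' end in bp, with downstream positive (horizontal axis), for H3K4me3 (left) and H3K27ac (right). Solid lines are genes of pairs, dashed lines single promoters, red ERY, blue the iMK-labelled libraries, paler lines replicate 2. The solid lines are at 58.0% to 92.2% at the 5' end for H3K4me3. They are higher at 1 kb upstream than at 1 kb downstream in every library, while the dashed lines peak downstream. The order of the solid lines follows from the coordinates, since 1 kb upstream lies less than 1 kb inside the partner gene.

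For H3K27ac, 621 pairs (82.4%) were called in all 4 libraries, 6 in both ERY libraries only, 32 in both libraries labelled iMK only, 37 in another combination and 58 in none. Among single promoters the shares were 30.0%, 2.03%, 8.30%, 5.85% and 53.8%. For H3K4me3, 510 pairs (67.6%) were called in all 4 libraries, 0 in ERY only, 23 in the iMK-labelled libraries only, 171 in another combination and 50 in none. Among single promoters the shares were 19.8%, 0.337%, 4.59%, 22.5% and 52.7%, and the share in another combination was close to that of the pairs (22.7%). Of regions with an H3K4me3 peak in at least 1 library, however, another combination made up 24.3% of 704 pairs and 47.6% of 9665 single promoters. Leaving out iMK H3K4me3 replicate 2 raised the ERY-only count to 37, and the iMK-only count was 78 without ERY replicate 1 and 61 without iMK replicate 1. These classes are counts without a test, because exact permutation over 4 libraries cannot go below p = 0.333 for any 1 region.

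Both marks were found in all 8 libraries at 501 pairs (66.4%), against 19.3% of single promoters, and in none at 43 (5.70%), against 49.3%. The closest pairs, with 1 to 100 bp between the ends, were called in all 8 libraries in 219 of 312 cases (70.2%) and in none in 9 (2.88%). At 101 to 200, 201 to 300 and 301 to 500 bp, 63.1%, 65% and 69.7% were called in all 8 libraries. In none were 7.77%, 5% and 4.55%, so the shares did not change steadily with spacing. At 501 to 1000 bp the counts were 41 of 70 (58.6%) and 10 (14.3%). The median CpG ratio there was 0.626, against 0.780 for the closest pairs. Pairs near the 1 kb limit gave these values. Of the 5 pairs just inside it (967 to 987 bp), 4 were called in all 8 libraries and Asphd1/Sez6l2 in none, and of the 5 just outside (1007 to 1023 bp), 3 were called in 8, Ppt2/Prrt1 in 6 and Serpina7/4930513O06Rik in none.

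The 43 pairs without any peak had a median CpG ratio of 0.415, and 21 of them were under 0.4, against 0.815 and 0 for the 501 pairs called everywhere. The ETS motif was in 7.06% of their 85 genes, against 30.6% of the 985 genes of the pairs called everywhere. Shares were 49.4% against 70.9% for the GC box, 0% against 5.69% for NRF1 and 1.18% against 6.60% for YY1. The E-box (4.71% against 10.6%), CCAAT box (38.8% against 43.1%) and TATAAA (3.53% against 4.37%) were also lower. The GATA motif (7.06% against 4.26%) and the cyclic AMP response element (7.06% against 4.37%) were higher. Some of the 43 pairs hold genes known from other tissues. Examples, chosen after the values were seen, are Kirrel2/Nphs1, adhesion proteins of the kidney filter, Duox2/Duoxa2, the thyroid enzyme that makes hydrogen peroxide and its maturation factor, and Smyd1/Cd8b1, a muscle methyltransferase and a T-cell coreceptor chain. The imprinted pairs Peg3/Usp29 and Sgce/Peg10 were also among them. High CpG content did not always go with a peak, since Bend6/Dst, with the highest ratio of the 43 (1.01), had none in any library.

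ERY and iMK-labelled libraries were then compared by the percent of each region under peaks, with limma fitted over all 10136 promoter regions that had H3K27ac in at least 1 of the 4 libraries. Of 696 pairs tested, 53 (7.61%) were higher in ERY and 40 (5.75%) higher in the iMK-labelled libraries at an adjusted p under 0.05, where 9.17% of all regions tested were called higher in ERY and 16.1% higher in the iMK-labelled libraries. The median difference (ERY minus iMK) was 0.45 points over the pairs and 0 over all regions. Of those higher in the iMK-labelled libraries, 21 of 40 had no ERY peak at all, 19 differed by over 50 points and the median size was 44.2 points. Of those higher in ERY, 4 of 53 had no peak in the iMK-labelled libraries, 4 differed by over 50 points, 31 by under 20, and the median size was 14.3 points. Among all regions called the directions stood in the same order, since 83.5% of those higher in the iMK-labelled libraries had no ERY peak and 73.2% differed by over 50 points (median 67.6), against 34.6% and 38.9% of those higher in ERY (median 37.8). The asymmetry is therefore not shown to belong to the pairs. Coverage cannot pass 100% and moves in steps of 200 bp, and replicates of both cell types had the same coverage at 28 of the 53 and 19 of the 40 pairs called. Of the pairs that differed by under 20 points, this held for 22 of the 31 higher in ERY and 11 of the 14 higher in the iMK-labelled libraries. Where replicates are identical, the standard error and p-value rest on the variance that limma borrows from other regions. They do not then measure the spread at the pair itself. With 500 bp in place of 1 kb beyond each end, 16 pairs were higher in ERY (8 of the 53) and 40 in the iMK-labelled libraries (30 of the 40), and with 5 kb the counts were 166 and 52. Leaving out a library moved the count higher in ERY to 81 without ERY replicate 2, 130 without iMK replicate 1 and 170 without iMK replicate 2, and the count higher in iMK to 80 without ERY replicate 1, 70 without iMK replicate 1 and 62 without iMK replicate 2. In such fits the lone library is taken to vary like the libraries of the other cell type.

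**Figure D4:**
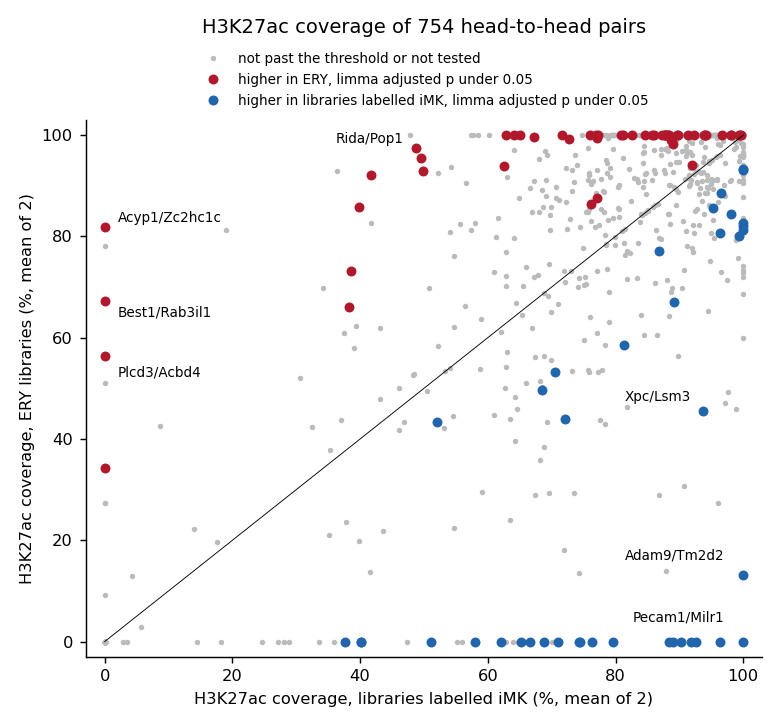
H3K27ac coverage of each of the 754 pairs as the percent of the region under peaks, mean of the 2 libraries labelled iMK (horizontal axis) against mean of the 2 ERY libraries (vertical axis). Red points are the 53 pairs higher in ERY and blue points the 40 higher in the iMK-labelled libraries (limma, adjusted p under 0.05), grey points the rest, and the line marks equal coverage. Most points crowd the upper right, and the row of blue points at 0 on the vertical axis holds the 21 pairs with no ERY peak.

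The largest difference toward the iMK-labelled libraries was at Pecam1/Milr1 (chr11:106749628-106752226). Pecam1 encodes CD31, an adhesion protein of endothelium, platelets and leukocytes, and Milr1 an inhibitory receptor of mast cells and other leukocytes. H3K27ac covered 0% of this region in both ERY libraries and 100% in both libraries labelled iMK. The difference was -100 ± 0.401 points (SE, limma adjusted p = 3.7e-05). Replicates were identical, so this SE rests on variance borrowed from other regions. The call held in all 14 alternative fits, in which the difference stayed at -100 points except with 5 kb beyond each end (-43.4). H3K4me3 covered 0% and 0% in ERY and 0% and 100% in the iMK-labelled libraries, so this mark was seen in iMK replicate 2 alone.

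Sept10/Sowahc (chr10:59220847-59222953), whose sequence is given above and whose minus-strand gene encodes a septin of the cytoskeleton, had H3K27ac over 0% and 0% in ERY and 100% and 92.7% in the iMK-labelled libraries (-96.3 ± 3.29 points, limma adjusted p = 0.0027). H3K4me3 followed the same order, with 0% and 0% in ERY and 92.7% and 100% in the iMK-labelled libraries. Both marks thus separated the cell types with no overlap. The call was kept in 15 of 15 alternatives.

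Hmmr/Nudcd2 (chr11:40732422-40734667) was different. Hmmr encodes a hyaluronan receptor that also acts at the mitotic spindle. H3K27ac covered 0% and 0% in ERY and 88.1% and 97.0% in the iMK-labelled libraries (-92.6 ± 4.0 points, limma adjusted p = 0.0046). H3K4me3 was broad in every library, at 97.0% and 97.0% in ERY and 79.2% and 100% in the iMK-labelled libraries, so the marks did not move together here. Of the 32 pairs with H3K27ac in the iMK-labelled libraries only, Hmmr/Nudcd2 and Gm27029/Rundc1 were the 2 with H3K4me3 in all 4 libraries. Without either ERY replicate the difference at Hmmr/Nudcd2 was still -92.6 points but missed the threshold (limma adjusted p = 0.065 in both fits).

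The Anxa5/1810062G17Rik pair (chr3:36474894-36476937), with the gene of the phospholipid-binding annexin A5, had H3K27ac over 0% and 0% in ERY and 83.5% and 100% in the iMK-labelled libraries (limma adjusted p = 0.015). Zfp277/Dock4 (chr12:40444902-40446952), a zinc finger protein and an exchange factor for small GTPases, had 0% and 0% against 95.2% and 85.4% (adjusted p = 0.0058). Ppp1r3d/Fam217b (chr2:178413472-178415524), with a glycogen-targeting subunit of protein phosphatase 1, had 0% and 0% against 93.7% and 84.2% (adjusted p = 0.0057). In each of these 3 pairs both libraries labelled iMK also had H3K4me3 and neither ERY library did. Without either ERY replicate all 3 missed the threshold, with differences that stayed at -91.8, -90.3 and -89.0 points.

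Spaca9/Ak8 (chr2:28698727-28701164), a sperm protein gene and an adenylate kinase, had H3K27ac over 0% and 0% in ERY and 76.9% and 100% in the iMK-labelled libraries (limma adjusted p = 0.030). This call was lost in 3 of 14 alternatives, without either ERY replicate (adjusted p = 0.18 and 0.19, with the difference still -88.4 points) and with no filter on uncovered regions. Adam9/Tm2d2 (chr8:25015927-25018211), with a membrane metalloprotease gene, had 26.3% and 0% against 100% and 100% (adjusted p = 0.039). Its H3K4me3 was present in every library, at 70.0% and 43.8% in ERY and 78.8% and 100% in the iMK-labelled libraries, and the call was lost in 5 of 15 alternatives, among them both fits without an iMK replicate. Among the 32 pairs with H3K27ac in the iMK-labelled libraries only, 14 had H3K4me3 in those libraries only and 16 a mixed H3K4me3 pattern.

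The largest differences toward ERY were at 3 pairs with no H3K4me3 peak in ERY. Acyp1/Zc2hc1c (chr12:85287438-85289591), with the gene of an acylphosphatase, had H3K27ac over 91.1% and 72.6% in ERY and 0% and 0% in the iMK-labelled libraries (81.8 ± 8.31 points, limma adjusted p = 0.023). Best1/Rab3il1 (chr19:10000633-10002669), a chloride channel and an exchange factor for Rab proteins, had 57.3% and 77.0% against 0% and 0% (adjusted p = 0.037) and a CpG ratio of 0.10, the lowest of all pairs. Plcd3/Acbd4 (chr11:103100658-103102682), a phospholipase C and an acyl-CoA binding protein, had 59.3% and 53.4% against 0% and 0% (adjusted p = 0.0055). None of these 3 had H3K4me3 in an ERY library, while iMK H3K4me3 replicate 2 covered 92.4% of Acyp1/Zc2hc1c and 92.9% of Plcd3/Acbd4. All 3 calls missed the threshold without either iMK replicate, with differences that stayed at 81.8, 67.2 and 56.3 points, and Best1/Rab3il1 missed it in 6 of 15 alternatives. In none of the 6 pairs with H3K27ac in ERY only was H3K4me3 called in both ERY libraries. Among these 6, Fam90a1b/Apoo, with the gene of a mitochondrial cristae protein, had 34.2% in both ERY libraries and 0% in the others (adjusted p = 0.0012), and Pcsk4/Reep6 and Ifit1bl2/Ifit1 did not pass (adjusted p = 0.20 and 0.12).

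Other pairs higher in ERY had H3K27ac in both cell types and differed in its breadth. H3K27ac peaks were wider in ERY at pairs and at single promoters alike, so greater breadth in ERY is not particular to these pairs. The part of this general width in their differences was not tested. Ppcs/Zmynd12 (chr4:119421420-119423814), with an enzyme of coenzyme A synthesis, had 100% and 84.1% in ERY and 41.8% and 41.8% in the iMK-labelled libraries (limma adjusted p = 0.044). Rida/Pop1 (chr15:34494255-34496304), an imine deaminase and a subunit of RNase P, had 94.9% and 100% against 48.8% and 48.8% (adjusted p = 0.0073). Actn3/Zdhhc24 (chr19:4876909-4879668), a muscle alpha-actinin and a palmitoyltransferase, had 82.2% and 89.4% against 36.2% and 43.5% (adjusted p = 0.023). In these pairs the ERY libraries were higher with no overlap, although the Ppcs/Zmynd12 and Rida/Pop1 calls were lost without either iMK replicate and that of Actn3/Zdhhc24 without any of the 4 libraries. Eftud2/Ccdc103 (chr11:102879985-102882204), a splicing GTPase and a factor of ciliary dynein, had 90.8% and 100% against 45% and 54.1% (adjusted p = 0.036). Tmtc3/Cep290 (chr10:100486350-100488558), with a protein of the ciliary transition zone, had 92.8% and 92.8% against 54.3% and 45.3% (adjusted p = 0.022). These last 2 calls were lost with 500 bp beyond each end and without either ERY replicate, and that of Eftud2/Ccdc103 also without either iMK replicate.

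**Figure D5:**
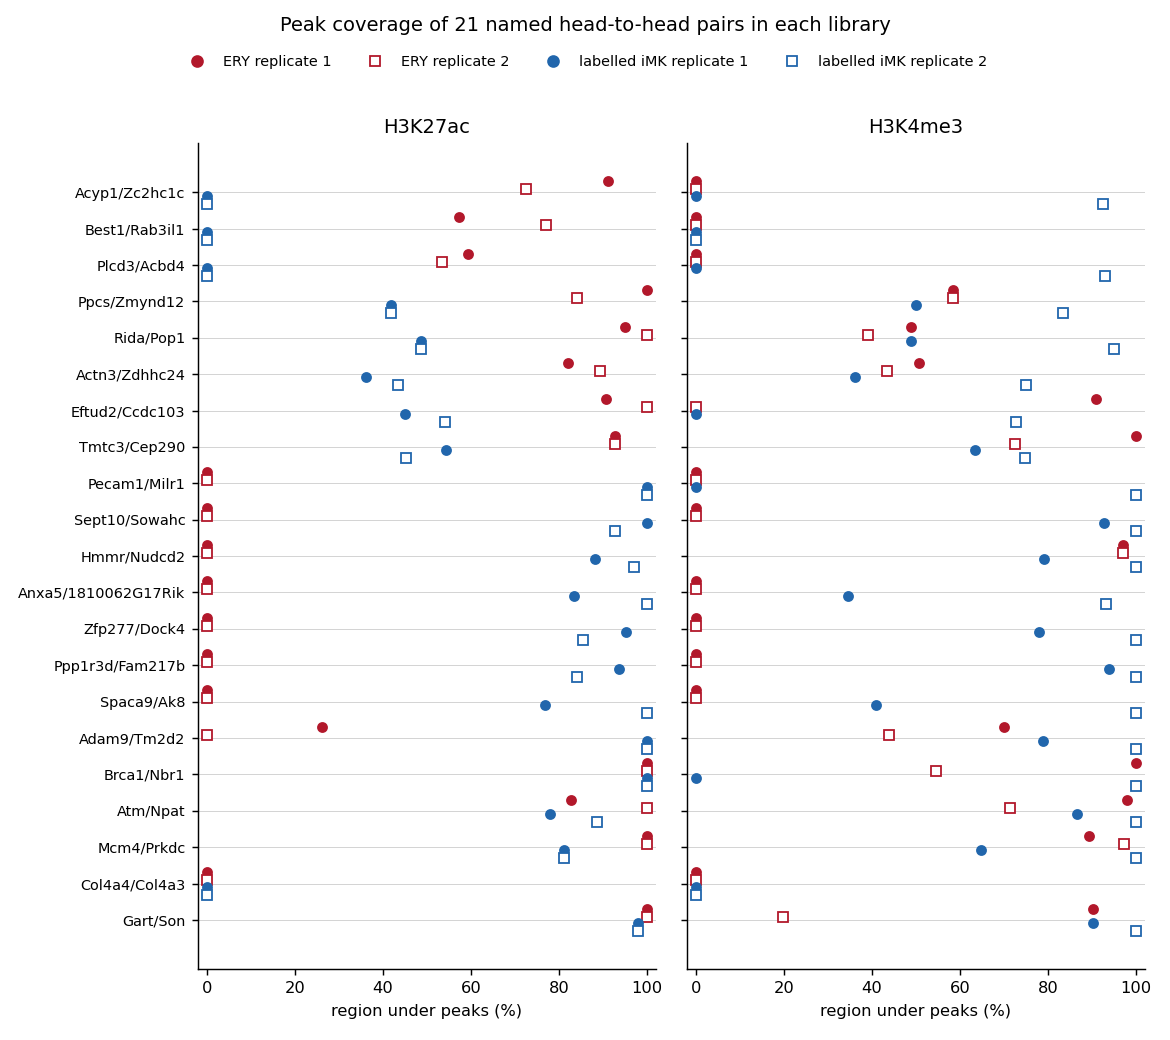
Percent of the region under peaks (horizontal axis) for H3K27ac (left) and H3K4me3 (right) at 21 named pairs (vertical axis), with filled circles for replicate 1, open squares for replicate 2, red for ERY and blue for the iMK-labelled libraries. The 7 pairs from Pecam1/Milr1 to Spaca9/Ak8 have 0% H3K27ac in ERY, and H3K4me3 spreads more widely between replicates than H3K27ac.

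Of 11 head-to-head pairs long known from textbooks, 5 met the definition, and the other 6 overlap at their annotated 5' ends by 21 to 277 bp (among them Hspd1/Hspe1, Surf1/Surf2, Psmb9/Tap1, Col4a1/Col4a2 and Paics/Ppat). Brca1/Nbr1 (chr11:101550955-101553149), a DNA repair gene and an autophagy receptor, was under H3K27ac over 100% in all 4 libraries, and H3K4me3 covered 100% and 54.4% in ERY and 0% and 100% in the iMK-labelled libraries. Atm/Npat (chr9:53535740-53538047), the kinase of the DNA damage response and a coactivator of histone genes, had H3K27ac over 82.7% and 100% in ERY and 78.0% and 88.7% in the iMK-labelled libraries, values that overlap (limma adjusted p = 0.58), and the sign of the difference changed from 7.99 points to -15.3 with 500 bp beyond each end and to -0.67 without ERY replicate 2. Mcm4/Prkdc (chr16:15636400-15638866), a subunit of the replicative helicase and the catalytic subunit of DNA-dependent protein kinase, had 100% and 100% against 81.1% and 81.1% (18.9 ± 0.307 points, adjusted p = 5.9e-04). Gart/Son (chr16:91645952-91648506), an enzyme of purine synthesis and a splicing factor, had 100% and 100% against 98.1% and 98.1% (adjusted p = 0.0018), which is a difference of 1.92 points between identical replicates. Both differences were 0 with 500 bp beyond each end. Col4a4/Col4a3 (chr1:82585849-82587921), collagen chains of the kidney filter, had no peak of either mark in any library.

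For H3K4me3, limma called 0 of 704 pairs in either direction, with 0% of all 10369 regions called higher in ERY and 0% higher in the iMK-labelled libraries. At an unadjusted p under 0.05 there were 1 pair higher in ERY and 18 higher in the iMK-labelled libraries, and 40 and 645 of all regions, and the lowest adjusted p was 0.734. The median difference was -10.0 points over the pairs and -20.0 over all regions. The median over the pairs was 4.2 points without iMK replicate 2 and -26.2 without iMK replicate 1, and -21.4 and 1.06 points without ERY replicate 1 and 2. Without iMK replicate 2 29 pairs were higher in ERY and 25 in the iMK-labelled library that remained, and without iMK replicate 1 the counts were 4 and 76, with the lone iMK library taken to vary like the ERY libraries. No pair was called in ERY only for one mark and in the iMK-labelled libraries only for the other.

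Coverage of one gene of a pair without the other was seen at few pairs in both libraries of a cell type. In both ERY libraries, H3K27ac lay in the first kilobase of the minus-strand gene alone at 7 pairs and of the plus-strand gene alone at 12, and on both sides at 576. In both libraries labelled iMK the counts were 9, 10 and 631. These 19 pairs per cell type were spaced more widely (medians of 306 and 302 bp) than the pairs as a whole, and 6 were one-sided in both cell types. Counted in 1 library in place of both, one-sided pairs were 33 without ERY replicate 2, 51 without ERY replicate 1, 37 without iMK replicate 2 and 33 without iMK replicate 1. Ccdc151/Prkcsh (chr9:22001634-22003806), a ciliary gene and the glucosidase II beta subunit, was one of them, with 80.6% to 100% of the Prkcsh side covered and 0% of the Ccdc151 side in all 4 libraries.

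At Rad51c/Tex14 (chr11:87403954-87406065), a recombination gene and a germ-cell kinase, the Rad51c side was covered at 100% in all 4 libraries, and the Tex14 side at 0% in both ERY libraries and 33.5% in both labelled iMK. Over the whole region this gave 49.6% and 49.6% in ERY and 68.5% and 68.5% in the iMK-labelled libraries (limma adjusted p = 0.0032). Sirt6/Ankrd24 (chr10:81626797-81629540) had 99.6% to 100% of the side of Sirt6, a chromatin deacetylase, covered in all 4, and 0% to 6.0% of the Ankrd24 side.

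The pairs were also grouped by the pathways of their genes. Over all 754 pairs 82.4% had H3K27ac in all 4 libraries, and over all promoter regions 31.8%, and the lists are read against these shares and against the 9.17% and 16.1% of all regions tested that were called higher in ERY and in the iMK-labelled libraries. The 25 pairs with a gene of the respiratory chain or ATP synthase were called in all 8 libraries in 17 cases, and 24 had H3K27ac in all 4 libraries. Their median H3K27ac difference was 9.10 points, against 0.45 over the 696 pairs tested and 0 over all regions tested. Of the 25 pairs, 3 were higher in ERY (12%, near the 9.17% over all regions), among them Uqcr10/Zmat5, with a complex III subunit, and Uqcrh/Lrrc41. Adprm/Sco1, with a copper chaperone of complex IV, was higher in the iMK-labelled libraries (4%, against 16.1%). At Uqcr10/Zmat5 H3K27ac covered 100% and 100% in ERY and 88.1% and 88.1% in the iMK-labelled libraries (limma adjusted p = 4.1e-04), and H3K4me3 77.0%, 0%, 77.0% and 96.7% in the same order. The 18 pairs with a mitochondrial ribosomal protein all had H3K27ac in all 4 libraries, with a median difference of 11.4 points and 2 of 18 higher in ERY (Mrpl32/Psma2 and Ncapd2/Mrpl51), or 11.1%, near the 9.17% over all regions. Helq/Mrps18c came close, with 88.8% and 98.7% in ERY against 49.3% and 59.1% (adjusted p = 0.054).

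DNA replication and repair genes were in 41 pairs, of which 32 were called in all 8 libraries and 39 had H3K27ac in all 4. Their median H3K27ac difference was 4.95 points, with 4 of 41 higher in ERY (9.76%, near the 9.17% over all regions) and 2 higher in the iMK-labelled libraries (4.88%, against 16.1%). The latter were Rad51c/Tex14 and Xpc/Lsm3, a damage sensor of nucleotide excision repair and a splicing factor, where H3K27ac covered 45.5% and 45.5% in ERY and 93.7% and 93.7% in the iMK-labelled libraries (limma adjusted p = 0.0016). Those higher in ERY were Mcm4/Prkdc, Recql4/Lrrc14, Orc3/Rars2 and Rpa3/Gm45062. The 14 pairs with a replication-dependent histone gene, most an H2A gene with an H2B gene on chromosome 13, had H3K27ac in all 4 libraries at 13, and none was called in either direction (median difference of 0 points). The exception was Hist1h2ba/Hist1h2aa, variants known from testis, with 17.3% and 8.67% in ERY and 0% and 8.67% in the iMK-labelled libraries. The near-identical copies of histone genes make these peaks uncertain, since reads could be placed on several of them.

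The other housekeeping lists had these values. Of 31 pairs with a ubiquitin ligase, conjugating enzyme or proteasome gene, 28 had H3K27ac in all 4 libraries (90.3%, against 82.4% of all pairs), and of the 30 tested 2 were higher in ERY (6.67%) and 1 in the iMK-labelled libraries (3.33%), with a median difference of 0 points. Fbxo9/Ick had 100% and 100% against 62.8% and 62.8% (limma adjusted p = 0.0019). Of 22 pairs with a C2H2 zinc finger gene, 17 had H3K27ac in all 4 libraries (77.3%), 2 had no peak of either mark, Zfp277/Dock4 was called, and the median difference was 2.89 points. Chaperone genes (11 pairs), cytosolic ribosomal proteins (10) and aminoacyl-tRNA synthetases (5) had H3K27ac in all 4 libraries at 10, 9 and 5 pairs, with 1, 0 and 1 higher in ERY and 0, 1 and 0 in the iMK-labelled libraries. Their median differences were 1.27, -1.20 and 11.8 points. For H3K4me3, none of these lists had a pair past the threshold in limma, and their medians ran from -24.8 points for the zinc finger genes to 5.04 points for the histones, against -20.0 over all regions tested.

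Genes of blood cell identity were listed too, and over all protein-coding genes 6.78% were in a pair. Of 90 erythroid genes in the list 4 were in a pair (4.44%), and of 89 megakaryocyte, 90 myeloid and 43 lymphoid genes 1 each, while none of 18 genes of antigen processing was. None of these pairs passed the limma threshold. Pairs with overlapping 5' ends, such as Psmb9/Tap1 (by 211 bp), are outside the definition. The absence of antigen processing genes does not extend to such pairs. Urod/Hectd3, with an enzyme of haem synthesis, had H3K27ac over 100% and 100% in ERY and 41.3% and 75.7% in the iMK-labelled libraries (adjusted p = 0.22). Gm49661/Prdx2, with the red cell peroxiredoxin, had 100% and 100% against 91.3% and 83.5% (adjusted p = 0.14). Sptbn4/Blvrb, with biliverdin reductase B, had 42.7% and 42.7% against 0% and 17.4% (adjusted p = 0.10). In these 3 pairs both ERY libraries were higher than both others, while Sox6/1110004F10Rik had no H3K27ac in any library. In Srrd/Hps4, with a gene of platelet dense granules, the order was the opposite, with 68.5% and 78.3% in ERY and 100% and 100% in the iMK-labelled libraries (adjusted p = 0.057). In Lrrc63/Lcp1, with the leukocyte actin-bundling protein, the values were 27% and 0% against 72.0% and 76.6% (adjusted p = 0.081).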

How the data were processed

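Both marks were measured by ChIP-seq in 8 libraries (2 per mark and cell type), grouped by the submitters' labels, and the 10 input libraries were not used here. Bowtie 1.0.0, SICER 1.1 and mm10 are listed in the submitters' processing notes, with no roles given, while the study's general methods describe Bowtie and MACS with multiply mapping reads allowed. The authors called peaks in each library and deposited for each one the fold ratio of ChIP over control with its p-value and q-value. All 262292 peak edges were multiples of 200 bp, as windowed calling gives, and all q-values were under 0.01. Joined windows can span several elements, and list length depends on depth and control, which the lists do not give.

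Percent of each region under peaks was computed in Python 3.11.15 (numpy 2.4.6, pandas 2.3.3) and compared with limma 3.58.1 in R 4.3.3 (trend, regions with a peak in at least 1 of the 4 libraries of the mark, Benjamini-Hochberg over all regions, threshold 0.05). The script was tested on simulated data. Shares per library were compared with exact sign-flip tests (two-sided). Sequence came from GRCm38. CpG ratios used 500 bp on each side of the midpoint. Noncoding partners were GENCODE genes head-to-head with a single promoter within 1 kb.

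Named pairs were, for each mark and direction, up to 8 pairs past the limma threshold with no overlap between cell types, in order of size, then textbook pairs, up to 3 per gene list and mark, up to 5 one-sided pairs per cell type, and the 5 on each side of the spacing limit. The text also names pairs outside this rule that passed the threshold or were in a counted class. The members and gene lists were chosen with earlier results of these data known. Some pairs that meet these rules are not reported here.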

Additional observations from a re-analysis of the deposited data

How the results depend on the processing

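No paired analysis was possible because the labels number no replicates. The pairs' excess over single promoters kept its direction and its side of the threshold under every alternative tried, from 25.3 points with CpG weighting upward, and from 49 to 49.9 points with each replicate left out. With all libraries positive, the sign-flip p-value stays at the smallest that their number allows, whatever the size of the excess. With peaks over at least 50% of the region, the ERY-only share was 1.86% for H3K27ac (0.796% as reported) and the shared H3K4me3 class fell to 42.3% from 67.6%. The H3K4me3 ERY-only share, 0% as reported, was 0.133% with q under 1e-05, 1.86% with equal numbers of top peaks and 0.165% with overlapping pairs added. The H3K27ac share higher in ERY (7.03% of 754 pairs) was 2.12% with 500 bp beyond each end and 22% with 5 kb, the last chosen after seeing the data. The causes were not tested.

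With each replicate left out, H3K27ac pairs higher in ERY ran from 8.62% to 22.5% and higher in iMK from 7.69% to 10.6% (5.31% as reported), and the classes from 82.5% to 84.5% shared, 0.796% to 1.33% ERY-only and 4.51% to 6.37% iMK-only. For H3K4me3 the ranges were 0% to 3.85% higher in ERY, 0% to 10.1% higher in iMK, 67.6% to 74.9% shared, 0% to 4.91% ERY-only and 3.05% to 10.3% iMK-only. One-sided pairs, counted with 1 library in place of 2, ran for H3K27ac from 4.38% to 6.76% in ERY and 4.38% to 4.91% in iMK (2.52% in each with both) and for H3K4me3 from 4.24% to 13% in ERY (1.72%) and 1.33% to 7.82% in iMK (0.265%). Of the 53 pairs higher in ERY, 38 to 40 were called again with each library left out, 19 with quantile normalization and 8 with 500 bp, and of the 40 higher in iMK, 24 to 39, 28 and 30. The other results stayed within 1.5 times the value reported, and for the named pairs, 54 differences under an alternative missed the threshold they passed as reported, with no change of direction among these. Atm/Npat, which did not pass, changed sign from 7.99 to -15.3 with 500 bp and -0.67 without ERY replicate 2. Peak lists limit what can be said of regions without a peak, since the depth behind them is unknown.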
